A study of Mus musculus with 12 samples.

Results

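The genes described here encode the core machinery that destroys mRNA, and they were measured in mouse round spermatids, the haploid germ cells that follow meiosis. Members were found by a rule on gene symbols, from the subunit families of the CCR4-NOT and PAN2-PAN3 deadenylases, the decapping factors, the 5 prime exonucleases, the LSM proteins, the RNA exosome and the nonsense-mediated decay (NMD) factors, and the rule uses no measured value. The rule found 53 of the 28643 gene symbols used. All 53 are protein-coding, and each was found in the GENCODE M21 annotation (GRCm38), spread over 17 chromosomes. Upf3b is the X-linked member. Exosc6 was not analysed here.

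Round spermatids were sorted by flow cytometry, with cycloheximide present throughout to hold ribosomes on mRNA, from male mice of 8 weeks. The control group was heterozygous for the targeted allele (Igf2bp3+/-), so every mouse carried at least 1 mutant copy, and the other group was homozygous (Igf2bp3-/-). For the experiments that include these libraries, the study picked Igf2bp3-/- males whose fertility was impaired. The groups therefore differ in that choice as well as in genotype. By the study's methods the allele is a frameshift made with Cas9 in the exon that encodes a KH domain of IGF2BP3, an RNA-binding protein, and it is present in all cells of the animal. Each genotype was measured by RNA-seq of total extract and by RNC-seq of mRNAs bound to 4 or more ribosomes, with 3 libraries for each of the 4 groups and 12 in all. The labels do not say whether the 3 replicates came from separate mice, whereas the study calls the replicates of both assays biological and describes the isolation of spermatids from each mouse.

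Most cytoplasmic mRNAs are destroyed in a fixed order. The poly(A) tail is first shortened by PAN2-PAN3 and by CCR4-NOT, in which CNOT1 is the scaffold and CNOT6, CNOT6L, CNOT7 and CNOT8 are the catalytic subunits. The cap is then removed by DCP2 with its activator DCP1 and the enhancers EDC3 and EDC4, helped by a cytoplasmic LSM ring that binds shortened tails, after which XRN1 degrades the body from the 5 prime end or the exosome from the 3 prime end. NMD is a surveillance branch that couples this machinery to translation: UPF1 is a helicase that acts on terminating ribosomes, UPF2 and UPF3 proteins link it to exon junctions, SMG1 phosphorylates it under the control of SMG8 and SMG9, and SMG5 and SMG6 act in the decay that follows. In round spermatids many mRNAs are stored before they are translated, decay factors gather in the chromatoid body, and genes on the X chromosome remain largely repressed after meiosis.

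The libraries differed in ways that bear on these genes. FPKM, reads per length and library size, gives no counts, so depth is unknown and no counting interval is given. A relative depth read from the low values was highest in Igf2bp3-/- RNA-seq replicate 1, and the others lay between 0.374 and 0.559 of it. The members took 0.227% to 0.265% of the summed FPKM in each library. Igf2bp3-/- RNC-seq replicate 2 stood apart from its group for many long members, so its effect is given beside the results that move with it. The labelled cell type was checked against marker lists. The summed FPKM of 7 round spermatid markers was 842 to 999 in the Igf2bp3+/- and 1097 to 1290 in the Igf2bp3-/- RNA-seq libraries. The 7 Leydig cell markers summed to 15.4 to 22.6 against 48.6 to 55.0, the 7 Sertoli markers in the table to 3.76 to 4.96 against 7.46 to 8.16, and the 7 blood and macrophage markers to 7.13 to 7.61 against 14 to 15.8. The 5 peritubular markers were at 1.55 to 1.73 against 1.05 to 1.60, with a lower mean in Igf2bp3-/-. Of the germ cell lists, 7 spermatocyte markers summed to 318 to 335 against 314 to 373 and 7 spermatogonia markers to 8.04 to 11.5 against 8.52 to 10.3. The 6 elongating spermatid markers summed to 8316 to 10846 against 9418 to 9575. No marker of these lists was at 0 in all libraries of a group. The part of these cells in any genotype difference was not tested. Igf2bp3 itself was at 38.2, 38.6 and 33.4 FPKM in Igf2bp3+/- RNA-seq and at 31.7, 32.5 and 31.4 in Igf2bp3-/- RNA-seq (log2 change -0.20 ± 0.09 (SE), limma adjusted p = 0.335), but a frameshift need not lower the transcript and 18.7% of its exonic bases overlap Malsu1 on the other strand, so this level does not check the genotype.

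The decay machinery was expressed above the typical gene of the whole table, over a wide range. In Igf2bp3+/- RNA-seq the median of the 53 members was 6.84 FPKM, against 1.91 FPKM over the 20494 genes with a mean above 0.1 FPKM. Of the members, 43 were above the median of that set. The set is not limited to protein-coding genes, as the members are. Of the 20352 genes tested in RNA-seq, 13734 were protein-coding. A median level over protein-coding genes alone was not taken. A mean above 1 FPKM in every group was reached by 40 members, and 51 were above 0 in all 12 libraries. Except for Pan2 and Pan3, the members of each role group spanned a range far wider than the spread between replicates, as the plot of levels by library shows.

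**Figure D1:**
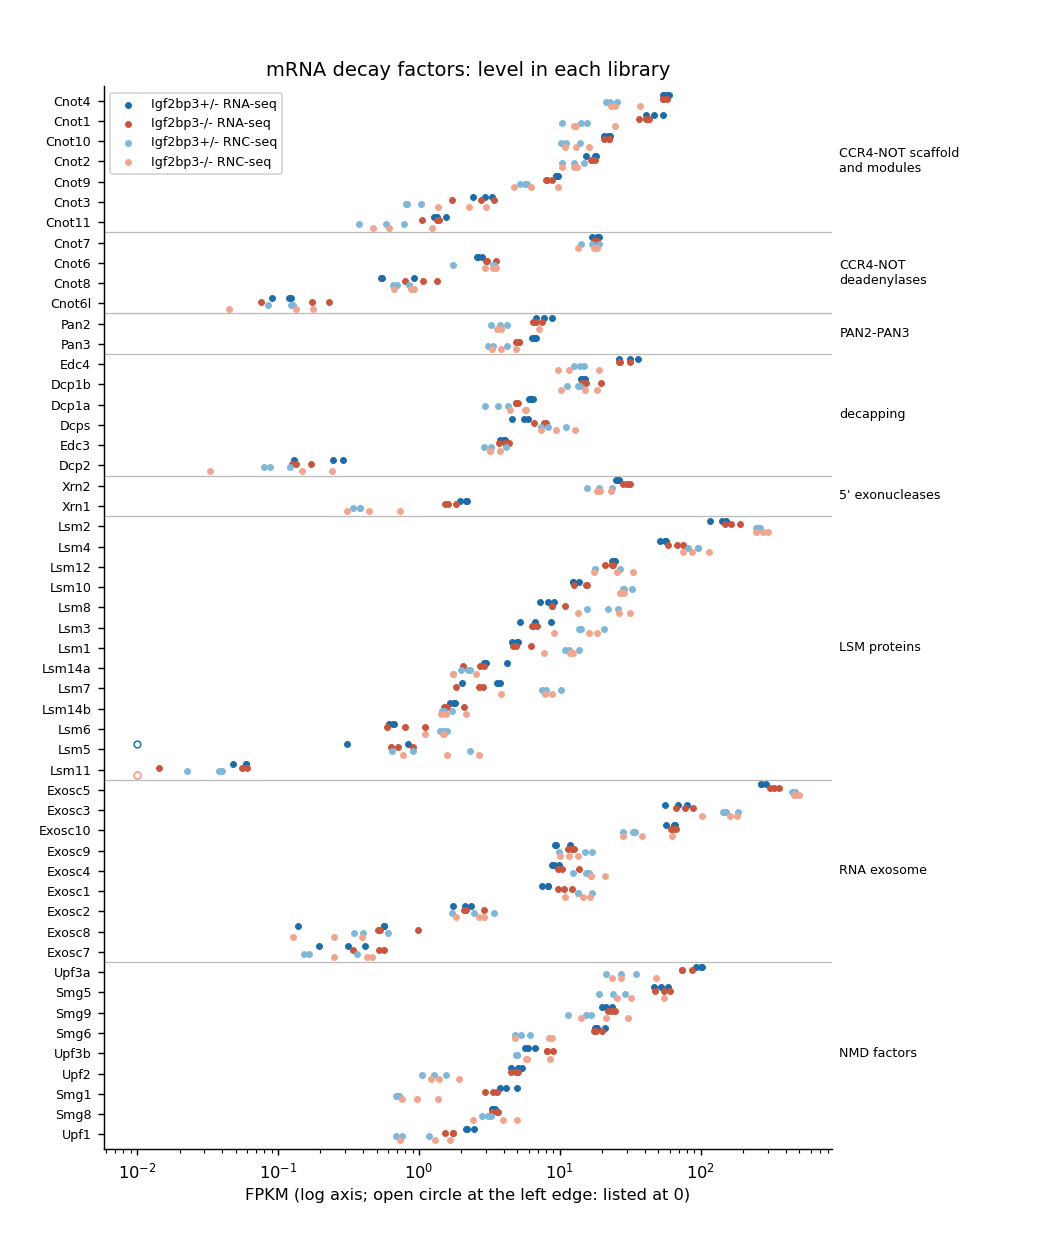
FPKM of 52 of the 53 mRNA decay factors in each of the 12 libraries (log axis), grouped by role and ordered within a role by the Igf2bp3+/- RNA-seq mean. Points are single libraries, coloured by genotype and assay, and open circles at the left edge are values listed at 0. Exosc5 and Lsm2 sit above 100 FPKM in every library and Lsm11 below 0.1 in every library. In Igf2bp3+/- long NMD and CCR4-NOT scaffold mRNAs have their RNC-seq points to the left of their RNA-seq points. In Igf2bp3-/- some of these overlap, such as Smg5 and Upf1.

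Among the catalytic subunits of CCR4-NOT, Cnot7 had the highest mRNA level. Its FPKM was 19.0, 18.3 and 16.8 in the Igf2bp3+/- RNA-seq libraries. Its paralog Cnot8 was at 0.547, 0.538 and 0.915 in the same libraries. Cnot7 exceeded Cnot8 in every library of every group, with a median ratio of 34 in Igf2bp3+/- RNA-seq and 17.0 in Igf2bp3-/- RNA-seq, where the libraries of the genotypes overlapped. Of the other catalytic pair, Cnot6 was at 2.58, 2.61 and 2.81 FPKM and Cnot6l at 0.12, 0.124 and 0.0903. The scaffold modules were higher, with a median over 7 genes of 17.1 FPKM. Cnot4, an E3 ubiquitin ligase, was at 56.9, 59.2 and 53.9 FPKM, and Cnot1 at 40.8, 46.8 and 53.9. Both genes of the other deadenylase, Pan2 and Pan3, had means of 7.76 and 6.54 FPKM.

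The decapping enzyme itself was the lowest gene of its group. Dcp2 was at 0.288, 0.247 and 0.13 FPKM in Igf2bp3+/- RNA-seq. The enhancer Edc4 was at 26.2, 31.6 and 35.6 FPKM, the highest of the 6 decapping genes. Dcp1b exceeded Dcp1a (chr14:30479535-30527063, plus strand) in every library, at 15.0, 14.3 and 14.1 FPKM against 6.25, 6.42 and 5.99. Dcps, which hydrolyses the cap left after 3 prime decay, was at 5.52, 5.90 and 4.61 FPKM. Of the exonucleases, the nuclear Xrn2, which acts in transcription termination, was at 26.2, 25.6 and 24.8 FPKM and the cytoplasmic Xrn1 at 2.17, 1.96 and 2.19.

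The LSM genes ran from the lowest member, Lsm11, to one of the highest. Lsm2, a subunit of both the cytoplasmic and the nuclear ring, was at 150, 140 and 117 FPKM in Igf2bp3+/- RNA-seq. Lsm1, which defines the cytoplasmic ring, was at 5.03, 4.99 and 4.58 FPKM. Lsm8, which takes its place in the nuclear ring on U6 snRNA, was at 8.25, 9.04 and 7.27. Each ring holds 1 copy of every subunit, and the mRNAs of the shared subunits ran from Lsm2 down to Lsm6 (0.615, 0.662 and 0.656 FPKM) and Lsm5, listed at 0.831, 0 and 0.309. Lsm5 and Lsm7 each have a pair of near-identical copies elsewhere in the genome (Gm10074 and Gm7846, Gm10146 and Gm13182), so their values are uncertain. Lsm11, a partner of Lsm10 in histone mRNA processing, had a mean of 0.0555 FPKM, was listed at 0 in all 3 Igf2bp3-/- RNC-seq libraries and was too low to test.

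The exosome held the most abundant member. Exosc5, a ring subunit, was at 266, 292 and 266 FPKM in Igf2bp3+/- RNA-seq. The ring subunits Exosc8 and Exosc7 were at 0.139, 0.569 and 0.568 and at 0.417, 0.312 and 0.196. Exosc3, a cap subunit, followed Exosc5 with 79.1, 68.7 and 55.7 FPKM, and the nuclear nuclease Exosc10 was at 56.6, 65.7 and 64.0. Exosc9, another ring subunit, was at 11.7, 9.23 and 9.42. The libraries of Exosc7 and Exosc8 overlapped, as did those of Exosc4 and Exosc9. Of the exosome genes, Exosc4 and Exosc2 overlap exons of Oplah and Gm13427 on the other strand over 19.8% and 12.4% of their exonic bases. For Exosc9 (Ccna2) and Exosc5 (Tmem91) these shares are 10.8% and 5.66%. For Exosc3 (Dcaf10) and Exosc8 (Supt20) they are 4.00% and 2.05%.

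In the NMD group Upf3a (chr8:13785615-13799193, plus strand, GRCm38) had the highest level. Its FPKM was 102, 101 and 91.9 in Igf2bp3+/- RNA-seq, at percentile 95.3 of the expressed genes. Its X-linked paralog Upf3b (chrX:37091678-37110322, minus strand) was at 6.67, 5.97 and 5.65. The libraries of the pair did not overlap, and Upf3a exceeded Upf3b by 15.4 to 16.9 times. The remaining factors ran from Smg5 (46.6, 52.3 and 58.5 FPKM) to Smg1 (3.74, 4.15 and 4.95), Smg8 (3.32, 3.45 and 3.31) and Upf1 (2.17, 2.16 and 2.44), so the helicase on which the pathway depends had the lowest mRNA of the group.

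The ratio of Upf3a to Upf3b differed by group. It was 15.4 to 16.9 in Igf2bp3+/- RNA-seq and 8.26 to 10.8 in Igf2bp3-/- RNA-seq. On polysomes it was 4.37 to 6.97 in Igf2bp3+/- and 4.06 to 5.67 in Igf2bp3-/-. The RNA-seq libraries of the genotypes did not overlap (1.74 times lower in Igf2bp3-/- on the log2 mean, two-sided exact permutation p = 0.1, Benjamini-Hochberg 0.333 over 20 tests of 5 pairs), and 0.1 is the smallest p that 3 against 3 allows. In RNC-seq they overlapped (exact permutation p = 0.5, Benjamini-Hochberg 0.706). The ratio of Dcp1a to Dcp1b was 0.416 to 0.449 in Igf2bp3+/- RNA-seq and 0.257 to 0.339 in Igf2bp3-/- RNA-seq, also without overlap (exact permutation p = 0.1, Benjamini-Hochberg 0.333). The genotype test of the genes themselves is given further on, and neither pair passed a limit.

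**Figure D2:**
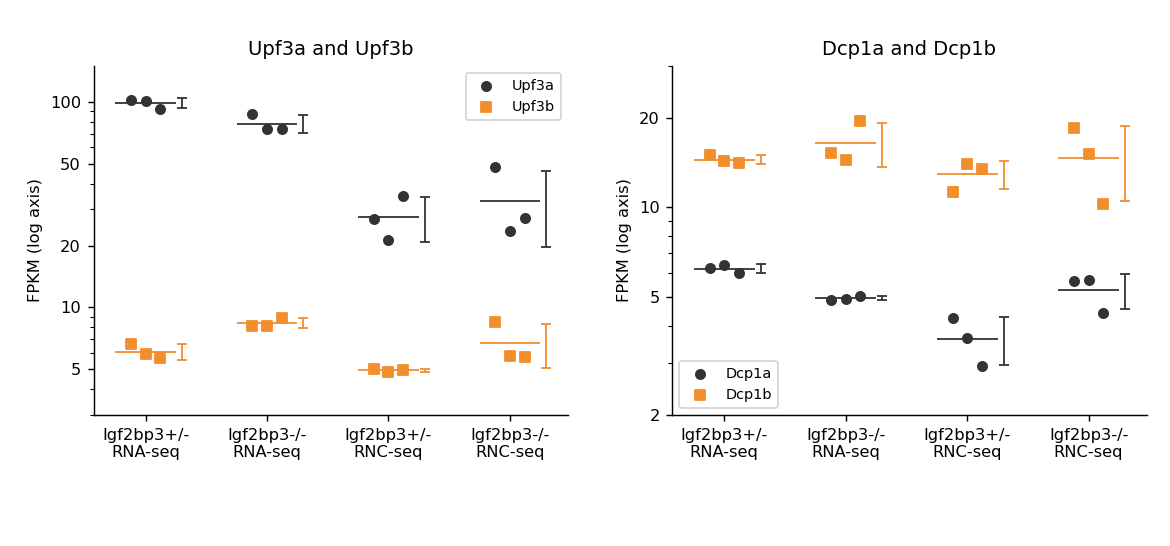
FPKM of Upf3a and Upf3b (left) and of Dcp1a and Dcp1b (right) in the 12 libraries, on log axes. Points are libraries, horizontal lines the group means and bars 1 SD (n = 3). Upf3a drops from a mean of 98.4 in Igf2bp3+/- RNA-seq to 27.6 in Igf2bp3+/- RNC-seq while Upf3b goes from 6.10 to 4.94, and the Igf2bp3+/- RNC-seq points of Dcp1a all lie below its RNA-seq points.

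Which decay-factor mRNAs are over- or under-represented on polysomes was asked by setting RNC-seq against RNA-seq within a genotype. In Igf2bp3+/- the small LSM and exosome subunits were enriched on polysomes and the large NMD and CCR4-NOT scaffold mRNAs were depleted. At a limma adjusted p under 0.05, 34 of 51 members tested differed, 13 higher and 21 lower in RNC-seq. Over all genes 43.7% of 17942 passed, 18.6% higher and 25.1% lower. The median loading of the members, the log2 difference of RNC-seq minus RNA-seq, was -0.23, against -0.09 over all genes. Both values depend on how the assays are aligned. After median centring the loading of all genes had a median of 0.07, that of the members -0.07, and the members split into 15 higher and 19 lower. The split of all genes then turned from 3331 higher and 4503 lower to 4630 higher and 3655 lower, so loading is read here as relative to other genes.

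By role the members separated. Of 12 LSM genes tested, 8 were higher and 1 lower (Lsm14a, a P-body protein), with a median of 1.15, and the call of Lsm14a was lost with median centring, quantile normalization or a length trend removed. Of 9 exosome genes 4 were higher (Exosc1, Exosc3, Exosc4 and Exosc5) and 1 lower, the nuclease Exosc10, with a median of 0.43. Of 10 NMD factors 8 were lower and none higher (median -1.22), and of the 7 CCR4-NOT scaffold genes 6 were lower and none higher (-1.17). Pan2 and Pan3 were both lower. The 4 catalytic CCR4-NOT subunits had a median of 0.01 and none passed. Of 5 decapping genes, Dcps was higher and Edc4 and Dcp1a lower, and Xrn1 was lower among the exonucleases.

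The LSM genes led the enriched members. Lsm7 (chr10:80852821-80855209, minus strand) rose from 3.76, 3.56 and 2.01 FPKM in RNA-seq to 10.2, 7.42 and 7.95 in RNC-seq (log2 1.46 ± 0.25 (SE), limma adjusted p = 0.00196), within the uncertainty from its copies. Lsm8 rose from 8.25, 9.04 and 7.27 to 25.9, 15.4 and 22.1 (1.33 ± 0.20, adjusted p = 0.00101). Lsm1 rose from 5.03, 4.99 and 4.58 to 13.5, 11.6 and 10.9 (1.28 ± 0.15, adjusted p = 0.000287). In each of these the lowest RNC-seq library was above the highest RNA-seq library. Exosc3 rose from 79.1, 68.7 and 55.7 to 184, 143 and 152 FPKM, a log2 loading of 1.24 ± 0.16. Lsm3 (1.23), Lsm10 (1.21), Lsm6 (1.10) and Lsm2 (0.92) completed the 8 largest. Exons of Lsm3 overlap another transcript on its own strand over 6.32% of their bases. Lsm5 had the highest loading of all, 1.86 ± 0.76, but did not pass (adjusted p = 0.0790).

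The depleted members were led by Smg1, the kinase of UPF1 (chr7:118131308-118243670, minus strand). It fell from 3.74, 4.15 and 4.95 FPKM in RNA-seq to 0.719, 0.682 and 0.725 in RNC-seq (log2 -2.43 ± 0.19 (SE), limma adjusted p = 6.7e-05). Xrn1 fell from 2.17, 1.96 and 2.19 to 0.384, 0.342 and 0.379 (-2.24 ± 0.21, adjusted p = 0.000126). Cnot1 fell from 40.8, 46.8 and 53.9 to 10.3, 14.2 and 15.4 (-1.83 ± 0.18, adjusted p = 0.000158). For Smg1 the mean FPKM was 4.28 in RNA-seq and 0.709 in RNC-seq. Its log2 loading, taken on FPKM + 0.1, corresponds to 5.39 times lower. The assays did not overlap for any of these genes. Upf2 (-1.88), Upf3a (-1.86), Smg6 (-1.80), Cnot3 (-1.60) and Upf1 (-1.30) followed. UPF3A and UPF3B are close relatives, and their mRNAs behaved differently here: Upf3a fell from 102, 101 and 91.9 to 27.0, 21.2 and 34.6 FPKM (adjusted p = 0.00013), whereas Upf3b was at 6.67, 5.97 and 5.65 against 5.00, 4.84 and 4.97 (-0.30 ± 0.15, adjusted p = 0.135). The ratio of the pair did not overlap between the assays, with an exact permutation p of 0.1, the smallest possible (Benjamini-Hochberg 0.333).

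**Figure D3:**
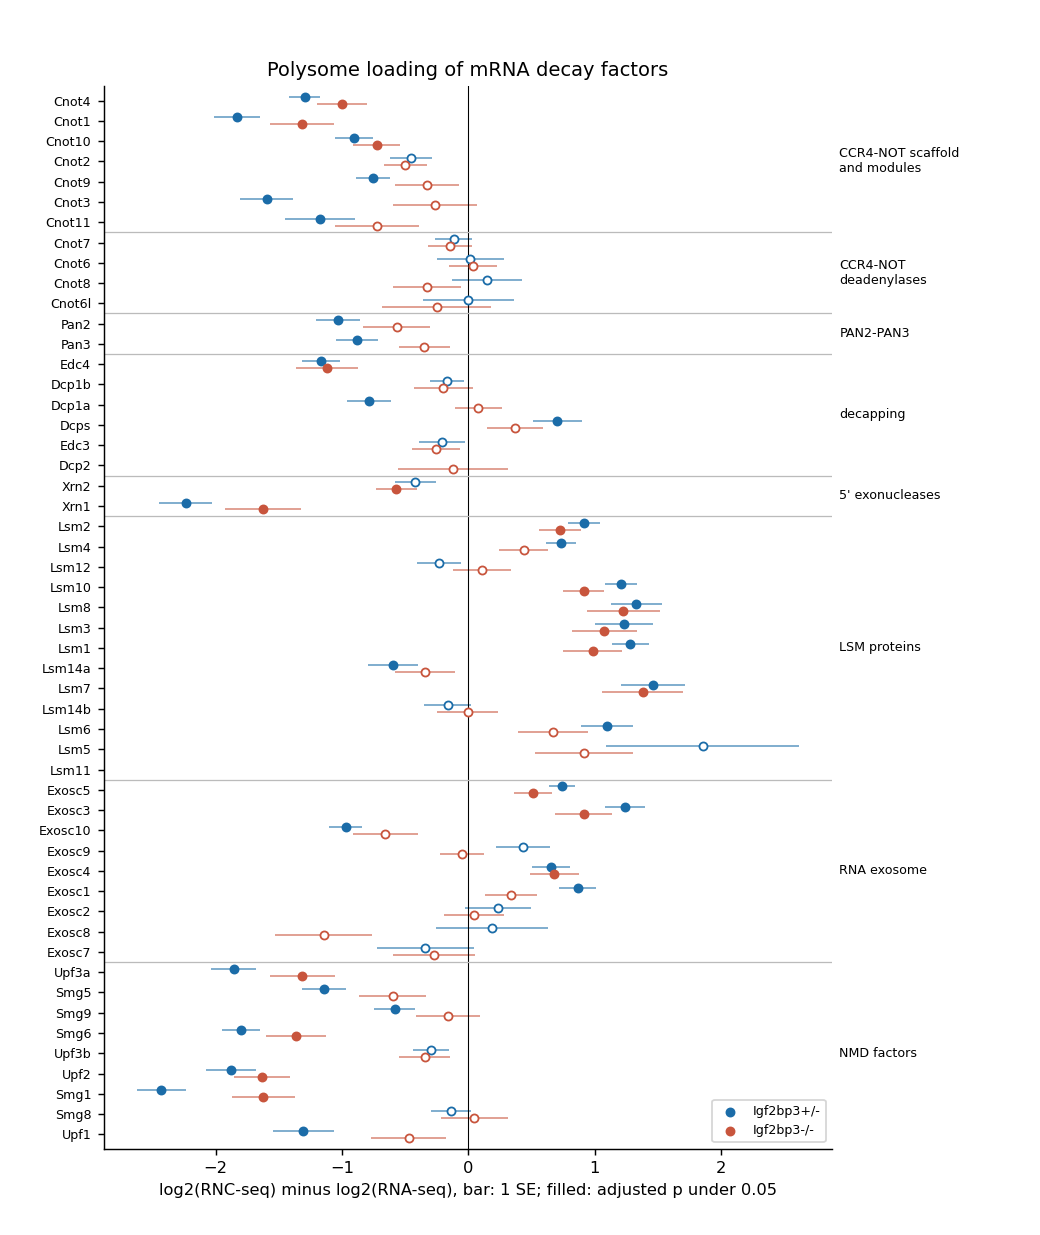
Polysome loading of the members, log2(RNC-seq) minus log2(RNA-seq) with 1 SE, in Igf2bp3+/- (blue) and Igf2bp3-/- (red), with filled points at an adjusted p under 0.05. In Igf2bp3+/- 8 LSM genes and 4 exosome genes are filled to the right of 0, while 7 of the 9 NMD factors shown and 6 CCR4-NOT scaffold genes are filled to the left. Lsm11 in both genotypes and Dcp2 in Igf2bp3+/- have no point because they were too low to test.

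The same pattern was measured in Igf2bp3-/- with fewer calls. There 19 of 52 members passed, 9 higher and 10 lower, and over all genes 21% of 18456 passed, 10.1% higher and 10.9% lower. The higher members were 6 LSM genes and Exosc3, Exosc4 and Exosc5. The lower ones were Smg1, Smg6, Upf2 and Upf3a among the NMD factors, Cnot1, Cnot4 and Cnot10 of the CCR4-NOT scaffold, Edc4, Xrn1 and Xrn2. The libraries of the genotypes are separate, and 18 members passed in both with the same direction, 52.9% of the Igf2bp3+/- list and 94.7% of the Igf2bp3-/- list. Xrn2 passed in Igf2bp3-/- alone. Of the 34 members called in Igf2bp3+/-, which were thus picked by their size there, 33 had a smaller loading, in size, in Igf2bp3-/-, the exception being Exosc4 (0.65 and 0.68), although the test of that difference, described under TE below, passed for none. Neither this count nor that of the 18 was made over all genes. Calls over all genes also fell, from 43.7% in Igf2bp3+/- to 21% in Igf2bp3-/-. For all protein-coding genes of 3 kb or more the median loading went from -1.11 to -0.67.

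The lowest loadings in Igf2bp3-/- were those of Upf2, Xrn1 and Smg1. The FPKM of Upf2 was 4.53, 5.02 and 4.88 in RNA-seq and 1.38, 1.93 and 1.22 in RNC-seq (log2 -1.63 ± 0.22 (SE), limma adjusted p = 0.00298). Xrn1 was at 1.54, 1.83 and 1.61 against 0.444, 0.729 and 0.308 (-1.63 ± 0.30, adjusted p = 0.00723). Smg1 was at 3.59, 3.34 and 2.96 against 0.752, 1.36 and 0.973 (-1.62 ± 0.25, adjusted p = 0.00419). In all 3 genes replicate 2 gave the highest RNC-seq value. Smg6 (-1.37), Cnot1 (-1.32), Upf3a (-1.31), Edc4 (-1.12) and Cnot4 (-0.999) completed the 8 lowest past the limit. Exosc8 was at -1.14 ± 0.38 and did not pass (adjusted p = 0.0613). Exons of Edc4 overlap Nrn1l on the same strand over 8.33% of their bases. On the enriched side Lsm7 was at 2.67, 1.83 and 2.85 FPKM in RNA-seq and 7.86, 3.81 and 8.84 in RNC-seq (1.38 ± 0.32, adjusted p = 0.0168). Lsm8 (1.23), Lsm3 (1.08), Lsm1 (0.98), Lsm10 (0.91), Exosc3 (0.91), Lsm2 (0.73) and Exosc4 (0.68) followed.

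The number of calls in Igf2bp3-/- rested on single libraries. It was 29 without RNC-seq replicate 2, with 12 higher and 17 lower, and by role 8 of 12 LSM genes were then higher and 6 of 10 NMD factors and 5 of 7 CCR4-NOT scaffold genes lower. It was 7 without RNA-seq replicate 1, 9 without RNA-seq replicate 2, 11 without RNC-seq replicate 1 and 10 without RNC-seq replicate 3. Of the 10 members with a coding sequence of 3 kb or more, 9 had their highest Igf2bp3-/- RNC-seq value in replicate 2, the exception being Smg6, and of the 20 members under 1 kb, 12 had their lowest and 4 their highest there. These counts were made for members only, so the share over all genes of these lengths is not given. Cnot1 was at 24.5 FPKM against 12.6 and 13.0 in the other RNC-seq libraries of the group, Smg5 at 54.9 against 32.1 and 25.4 and Exosc10 at 62.1 against 38.0 and 28.2, while Lsm8 was at 13.5 against 26.2 and 31.3 and Exosc3 at 102 against 180 and 161.

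The loading of the members followed the length of the coding sequence, taken from the longest coding transcript in GENCODE M21. Across the 51 members tested in Igf2bp3+/- the Spearman correlation of loading with coding length was -0.867, and across 52 in Igf2bp3-/- it was -0.814. Over all protein-coding genes it was -0.552 (n = 12516) and -0.517 (n = 12932). These are descriptions across genes measured in the same libraries, and genes are not independent replicates. In Igf2bp3+/- the 20 members with a coding sequence under 1 kb had a median loading of 0.80, the 21 between 1 and 3 kb -0.45 and the 10 of 3 kb or more -1.55. Over all protein-coding genes these medians were 0.29, -0.35 and -1.11. In Igf2bp3-/- the members' medians were 0.59, -0.26 and -1.22, against 0.23, -0.23 and -0.67. Without Igf2bp3-/- RNC-seq replicate 2 the correlation across the members in Igf2bp3-/- was -0.844 and the medians were 0.66, -0.31 and -1.44. The 9 shortest coding sequences among the members are all of LSM genes, from 240 bases in Lsm6 to 414 in Lsm4, and Smg1 has the longest, with 10974.

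**Figure D4:**
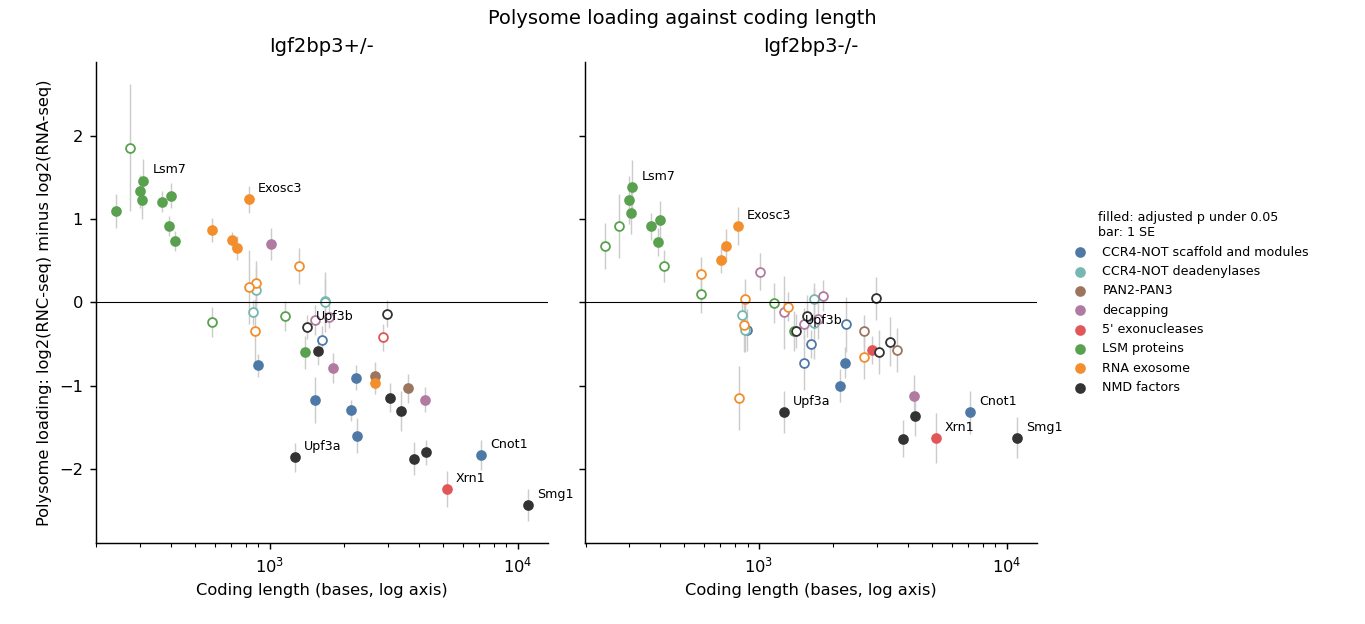
Polysome loading of the members with 1 SE against the length of its coding sequence (log axis) in Igf2bp3+/- (left) and Igf2bp3-/- (right), coloured by role, with filled points at an adjusted p under 0.05. Loading falls with coding length in both genotypes, and Upf3a lies 1.56 log2 units below Upf3b in Igf2bp3+/- at a similar length, 1266 against 1416 coding bases.

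In a step added after the data were seen, a trend on the length of the whole transcript, untranslated regions included, was removed from each library. In Igf2bp3+/- 28 members then passed, 14 higher and 14 lower, against 13 and 21 without the step. Over all genes 3404 were then higher and 3218 lower, against 3331 and 4503, so the even split of the members was also that of all genes. By role 7 of 12 LSM genes were still higher (median 0.68), and 6 of 10 NMD factors (-0.61) and 5 of 7 CCR4-NOT scaffold genes (-0.73) still lower. Pan2 (-0.43, adjusted p = 0.0533) and Pan3 (-0.15, adjusted p = 0.418) no longer passed. Upf3a had the lowest value, -1.72 ± 0.14 (SE) (limma adjusted p = 7.54e-05), while Upf3b was at -0.09 ± 0.13 (adjusted p = 0.629). Xrn1 (-1.51), Cnot3 (-1.29), Upf2 (-1.19) and Smg1 (-1.11) also remained low. Lsm6 (1.60) and Lsm1 (1.56) were the highest, and both have long transcripts for their coding sequence (3792 and 2663 bases). In Igf2bp3-/- 18 members passed with the step, 9 in each direction, with Upf3a again the lowest past the limit at -1.24 ± 0.23 (adjusted p = 0.00946). There 1494 of all genes were higher and 1449 lower with the step. Dcp1a, lower on polysomes in Igf2bp3+/- without the step (-0.79 ± 0.18, adjusted p = 0.00691), was at -0.05 ± 0.19 with it (adjusted p = 0.845), and in Igf2bp3-/- it went from 0.08 ± 0.18 (adjusted p = 0.796) to 0.53 ± 0.15 (adjusted p = 0.042).

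Since RNC-seq measures mRNA on ribosomes, the bases around the annotated start codons of the 4 members highest and the 4 lowest in Igf2bp3+/- loading among those past the limit are shown, with Upf3b beside Upf3a. They are from GENCODE M21 (GRCm38), 5 prime to 3 prime, with 9 bases before the start codon, the start codon in capitals and the base after it.
Lsm7: ggcgacaagATGg
Lsm8: tgttctaatATGt
Lsm1: agctcaaacATGa
Exosc3: acgcctgccATGg
Upf2: ggtcacataATGc
Upf3a: ccggtggggATGc
Upf3b: accgtggccATGa
Smg1: gggaaggtaATGa
Xrn1: acggtcaaaATGg
All 9 have A or G at the third base before the ATG, a position known to favour initiation, and Lsm7, Exosc3 and Xrn1 have G after it. Over all 53 members a purine at that position was found in 47 (88.7%), against 84.8% of 16029 protein-coding genes in the table, G after the ATG in 28 (52.8%) against 51.1%, and both in 24 (45.3%) against 43.2%. These letters do not separate the enriched from the depleted members shown, and the shares of the members lie near those of all genes.

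The RNA-seq comparison asks whether the decay machinery differs in abundance without IGF2BP3. No member passed the limit in limma, with 0 of 52 tested at an adjusted p under 0.05, against 0.256% of 20352 genes. At an unadjusted p under 0.05 there were 13 members, 8 higher and 5 lower in Igf2bp3-/-, where the share over all genes was 15.7% (10.4% higher and 5.32% lower). For 15 members, 7 higher and 8 lower, no library of one genotype fell within the range of the other, against 22.7% of all genes (14.1% higher and 8.68% lower). The median log2 change of the members was 0.04 and that of all genes 0.05. FPKM is scaled to library size, so neither the number of spermatids nor the total RNA per cell is measured here. In RNA from many sorted cells, a different mix of cells and a different level per cell cannot be told apart.

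The 3 members with the smallest p in each direction are given with their values. Upf3b was at 6.67, 5.97 and 5.65 FPKM in Igf2bp3+/- and 8.08, 8.15 and 8.91 in Igf2bp3-/- (log2 change 0.45 ± 0.11 (SE), limma adjusted p = 0.169). Exosc1, a cap subunit of the exosome, was at 8.17, 8.20 and 7.50 against 10.7, 9.73 and 12.3 (0.45 ± 0.12, adjusted p = 0.18). Dcps was at 5.52, 5.90 and 4.61 against 6.51, 7.75 and 8.00 (0.47 ± 0.14, adjusted p = 0.205). In each the Igf2bp3-/- libraries were all above the Igf2bp3+/- libraries. On the other side Pan3 was at 6.33, 6.57 and 6.71 FPKM against 5.12, 5.14 and 4.86 (-0.37 ± 0.11, adjusted p = 0.201). Upf3a was at 102, 101 and 91.9 against 87.2, 73.8 and 73.6 (-0.33 ± 0.10, adjusted p = 0.201). Dcp1a was at 6.25, 6.42 and 5.99 against 4.89, 4.90 and 5.02 (-0.33 ± 0.11, adjusted p = 0.227). Here the Igf2bp3-/- libraries were all below, so both UPF3 paralogs were without overlap in opposite directions, and neither change passed the adjusted limit.

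By role, all 9 exosome genes had a positive RNA-seq change, as did 56.2% of all genes, with a median of 0.27, and 6 of the 7 CCR4-NOT scaffold genes a negative one with a median of -0.14. No gene of either group passed. With quantile normalization 8 of 9 and 7 of 7 had those signs. The RNA-seq change also went with coding length, with a Spearman correlation of -0.507 across the members and -0.336 across 13734 protein-coding genes. The 20 members with a coding sequence under 1 kb had a median of 0.24 and the 10 of 3 kb or more -0.15, and over all protein-coding genes these medians were 0.17 and -0.13. With the length trend removed the exosome median was 0.18, still positive in 9 of 9, and no member passed.

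**Figure D5:**
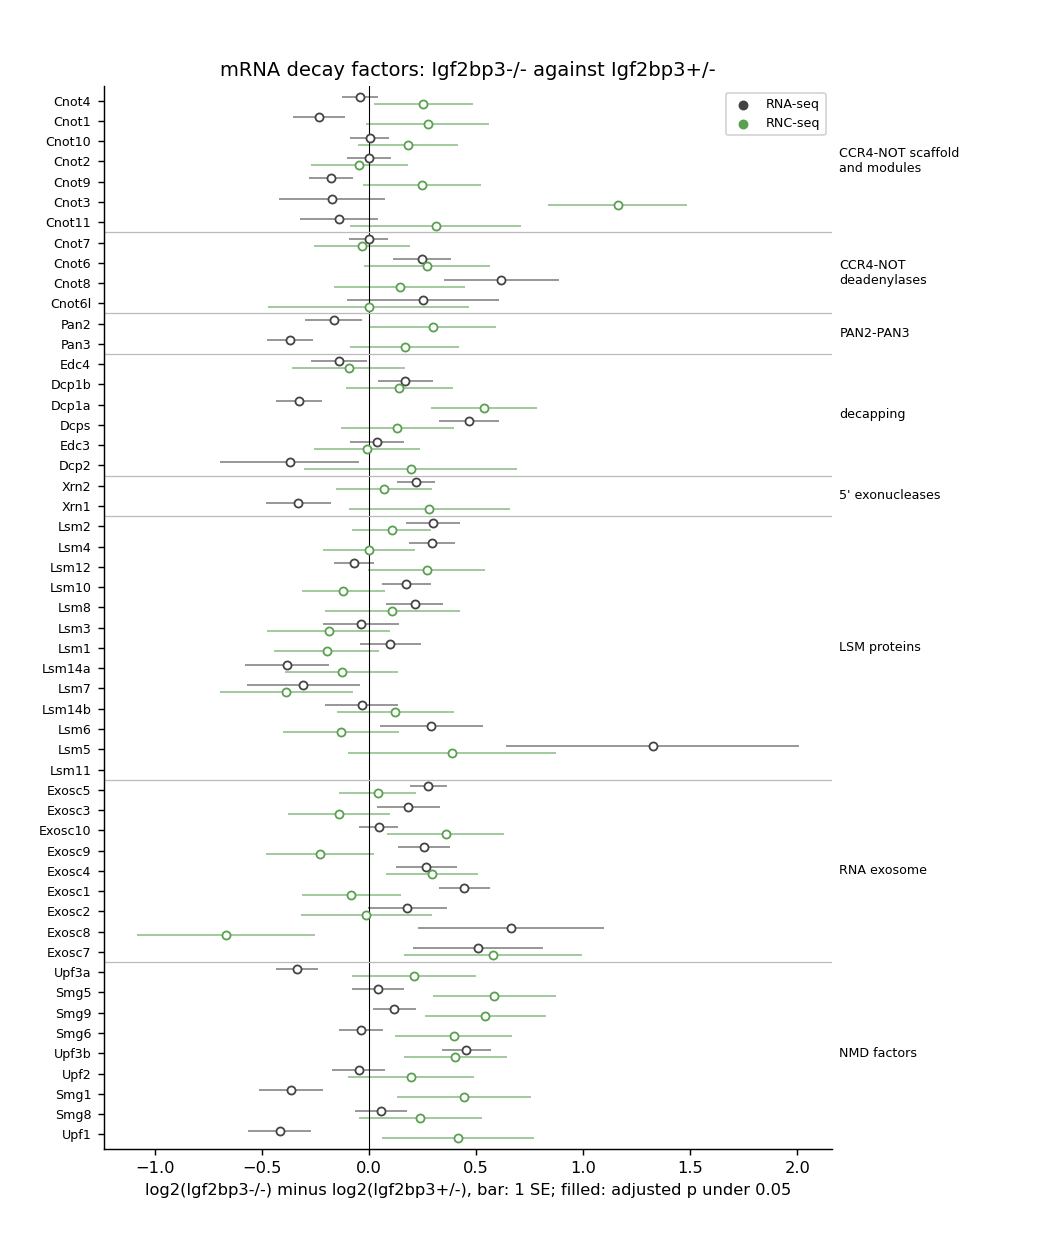
Genotype difference of the members, log2(Igf2bp3-/-) minus log2(Igf2bp3+/-) with 1 SE, in RNA-seq (dark) and RNC-seq (green). All points are open because no member passed an adjusted p of 0.05 in either assay. The 9 exosome genes lie right of 0 in RNA-seq and the 9 NMD factors shown right of 0 in RNC-seq, with Cnot3 the farthest right in RNC-seq at 1.16.

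The abundance of these mRNAs on polysomes was compared between the genotypes in the RNC-seq libraries. In limma 0 of 52 members passed, against 0.115% of 19051 genes, and 1 member, Cnot3, was higher at an unadjusted p under 0.05, against 5.36% of all genes in that direction. This comparison has little power. In simulated data it recovered 18% of 100 genes given a log2 change of 1, so most changes of that size would be missed. The groups were apart for 5 members, all higher in Igf2bp3-/- (Cnot3, Dcp1a, Exosc4, Smg1 and Upf3b), against 9.44% of all genes in that direction. The median change was 0.17 for the members and 0.13 for all genes, and centring each library moved these to 0.05 and 0.01. The marker sums of some other cells also differed in these libraries: Leydig markers summed to 6.75 to 14.3 FPKM in Igf2bp3+/- and 51.5 to 103 in Igf2bp3-/-, and Sertoli markers to 1.60 to 2.04 and 3.89 to 4.37. Spermatocyte markers overlapped, at 337 to 412 and 314 to 409, as did those of spermatogonia, round spermatids and elongating spermatids. The part of these cells in the changes was not tested. Cnot3 (chr7:3645268-3661109, plus strand), which with Cnot2 forms a regulatory module of CCR4-NOT, was at 0.825, 1.03 and 0.806 FPKM in Igf2bp3+/- and 2.98, 2.25 and 1.36 in Igf2bp3-/- (log2 change 1.16 ± 0.32 (SE), adjusted p = 0.593). Its exons overlap Leng1 on the other strand over 6.07% of their bases. Dcp1a was at 4.26, 3.63 and 2.93 against 5.65, 5.71 and 4.42 (0.54 ± 0.25, adjusted p = 0.767). Smg5 was at 19.0, 29.1 and 23.9 against 32.1, 54.9 and 25.4 (0.58 ± 0.29, adjusted p = 0.771). The Smg5 libraries overlapped and those of the other 2 did not, and without Igf2bp3-/- replicate 2 the change of Smg5 was 0.27. In the other direction Exosc8 (-0.67 ± 0.42), Lsm7 (-0.39 ± 0.31) and Exosc9 (-0.23 ± 0.25) had the smallest p, with adjusted p of 0.816, 0.846 and 0.890, and all overlapped. Without Igf2bp3-/- replicate 2 these were -0.94, -0.02 and -0.13.

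The NMD factors shared a sign on polysomes. All 10 had a positive RNC-seq change, as did 65.3% of all genes, from 0.20 to 0.58, with a median of 0.40, and none passed. All 10 were also positive with each library centred (median 0.28), with quantile normalization (0.27) and without Igf2bp3-/- RNC-seq replicate 2 (0.26), and 9 were positive with the length trend removed (0.19). The CCR4-NOT scaffold genes were positive in 6 of 7 (median 0.25), but in 4 of 7 (0.04) without that library. Across all protein-coding genes with a coding sequence of 3 kb or more the median was 0.26, and for the 10 such members 0.35. Without that library these were 0.10 and 0.07, and the Spearman correlation of the RNC-seq change with coding length across the members went from 0.520 to -0.09.

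Translational efficiency (TE) is the RNC-seq level over the RNA-seq level, and its genotype difference was tested as the interaction of genotype and assay over the 12 libraries. In limma 0 of 52 members passed, against 0.00543% of 18414 genes, and 4 members had an unadjusted p under 0.05, 3 higher and 1 lower in Igf2bp3-/-, against 7.13% of all genes (5.54% higher and 1.58% lower). In simulated data this test recovered 29% of 100 genes given a log2 change of 1, so most changes of that size would be missed. The members' median was 0.04 and that of all genes 0.06, and centring turned these to -0.09 and -0.07. Dcp1a had the smallest p, with a TE difference of 0.86 ± 0.24 (SE) and an adjusted p of 0.686 on the log2 scale. Cnot3 (1.33 ± 0.42) and Smg1 (0.81 ± 0.31) followed with the same adjusted p, and without Igf2bp3-/- RNC-seq replicate 2 the Smg1 value was 0.60. Dcp1a was lower in every Igf2bp3-/- RNA-seq library and higher in every Igf2bp3-/- RNC-seq library than in the control, and so was Smg1, at 3.59, 3.34 and 2.96 FPKM against 3.74, 4.15 and 4.95 in RNA-seq and 0.752, 1.36 and 0.973 against 0.719, 0.682 and 0.725 in RNC-seq. Exosc8 (-1.33 ± 0.61), Exosc1 (-0.53 ± 0.25) and Exosc9 (-0.49 ± 0.28) had the smallest p in the other direction, with adjusted p of 0.699, 0.708 and 0.725. Exosc8 was under 1 FPKM in every library, and without Igf2bp3+/- RNA-seq replicate 1, where it was at 0.139 against 0.569 and 0.568, its TE difference was -0.84. Without Igf2bp3-/- RNC-seq replicate 2 that of Exosc1 was -0.35.

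By role the TE differences are differences of the loadings already given and use the same libraries. The NMD factors had a median of 0.43 with 9 of 10 positive, the CCR4-NOT scaffold 0.43 with 6 of 7, the LSM genes -0.17 with 3 of 12 and the exosome -0.23 with 3 of 9, and none passed. Without Igf2bp3-/- RNC-seq replicate 2 these medians were 0.27, 0.15, 0.00 and -0.22, and 6 of 12 LSM genes were positive. With the length trend removed they were 0.23, 0.15, -0.06 and -0.25. The Spearman correlation of the TE difference with coding length was 0.680 across the members and 0.315 across 12858 protein-coding genes. The 10 members of 3 kb or more had a median of 0.49 and all such protein-coding genes 0.40. Without that library the correlations were 0.367 and 0.128 and the medians 0.21 and 0.23.

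Factors that work with this machinery but are not members, such as the exosome helicases, exon junction proteins and recruiters of CCR4-NOT, were counted from a list of 66 symbols, 62 of them in the table. None passed in RNA-seq, RNC-seq or TE in limma. In Igf2bp3+/- 34 of 55 tested differed in loading, 7 higher and 27 lower, where 43.7% of all genes differed, 18.6% higher and 25.1% lower. Magoh (1.78) and Magohb (1.51), both small exon junction proteins, were the highest, and Tnrc6c (-2.02) and Zfp36 (-1.70), which bring CCR4-NOT to targets of microRNAs and AU-rich elements, the lowest. In Igf2bp3-/- 12 of 56 differed, 1 higher (Magoh, 1.05) and 11 lower, with Ttc37 of the SKI complex at -1.15 and Tnrc6c at -1.02. The total share was near the 21% of all genes, but those split into 10.1% higher and 10.9% lower, whereas the calls of the list were mostly lower.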

How the data were processed

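The authors deposited one table of FPKM for the 12 libraries. Per the labels and the study's methods, Trim Galore 0.6.6 trimmed the reads, HISAT2 placed them on GRCm38 and StringTie 2.1.7 gave the FPKM. The annotation release and the use of strand are not stated, and the labels and methods name different library kits and instruments. Columns headed WT are Igf2bp3+/- by the labels. Of 28668 symbols, 25 turned into dates by spreadsheet software were left out (0.0995% of FPKM).

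Values were analysed as log2(FPKM + 0.1), a scale that understates changes of low genes, with limma 3.58.1 (R 4.3.3, intensity trend), two-sided, with Benjamini-Hochberg adjustment over all genes with a mean FPKM above 0.1 in each assay of the fit and a limit of 0.05. Genotype was tested within RNA-seq and within RNC-seq, loading within each genotype, and TE as an interaction over 12 libraries. Paralog ratios were tested by exact permutation. Scripts were tested on simulated data. Of 100 genes given a log2 change of 1, the genotype test recovered 74% in RNA-seq, 18% in RNC-seq and 29% in TE. A member that did not pass is therefore not shown to be unchanged. A near-identical copy shared 95% identity or more with 50% or more of the transcript (BLAST 2.17.0). Exons of 18 members overlap another gene over 1% or more of their bases, and since strand use is not stated these shares are uncertain. 1 member enters the counts and is not reported here by itself. The family of genes, its rule and the lists were chosen with earlier results of these data known. By the naming rule, changes are given for the 8 largest per direction in loading and, where none passed, the 3 with the smallest p. Alternatives were another pseudocount (1), no filter or a mean above 1, median centring, quantile normalization, library weights, 1 fit over all libraries, the replicate number as a block, an unadjusted criterion, leaving out each library, and, added after seeing the data, removal of a length trend.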

Additional observations from a re-analysis of the deposited data

Results flagged for a closer look

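Dcp1a was singled out because its genotype difference had opposite signs in the assays without overlap, lower in all 3 Igf2bp3-/- RNA-seq libraries and higher in all 3 Igf2bp3-/- RNC-seq libraries than in every control library. The interaction was 0.865 on the log2 scale, with a limma adjusted p of 0.686. Smg1 showed the same pattern, with an interaction of 0.807 and an adjusted p of 0.686. Its lowest Igf2bp3-/- RNC-seq value, 0.752 FPKM, lay just above the highest control value, 0.725. The test of the difference passed for neither. How many of all genes show this pattern was not counted. Without overlap, 8.68% of all genes were lower in RNA-seq and 9.44% higher in RNC-seq, each assay taken alone.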

How the results depend on the processing

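No member passed in RNA-seq, RNC-seq or TE under any alternative with an adjusted p. Under a looser rule, over 1.5-fold at an unadjusted p below 0.05, the members passing were 1 for the genotype difference in RNA-seq (5.45% of all genes), 1 for the genotype difference in RNC-seq (5.78%) and 4 for the genotype difference in TE (6.55%). In Igf2bp3+/- loading the count stayed within 1.5 times of 34, and leaving out a library gave 32 to 35. In Igf2bp3-/- loading it was 19, and leaving out a library gave 7 to 29. The genotype difference in RNA-seq, all genes tested, called 52 genes, against 31 with no filter, 84 with library weights, 87 with the length trend removed, as few as 9 without a library (either of Igf2bp3-/- replicates 1 and 2) and 1109 under the looser rule. The genotype difference in RNC-seq, all genes tested, called 22, against 2 with no filter, 13 centred, 12 with quantile normalization, 48 in 1 fit over all libraries, 0 without Igf2bp3-/- replicate 1 and 1102 under the looser rule. The genotype difference in TE, all genes tested, called 1, against 0 with a pseudocount of 1, a mean above 1, the replicate block or library weights, and 1207 under the looser rule. The comparison polysome loading in Igf2bp3-/-, all genes tested, called 3880, and from 1155 (without RNA-seq replicate 1) to 6182 genes (without RNC-seq replicate 2) without a library. No named change turned its sign under any alternative. The replicate numbers were not taken to pair the libraries in the main fits, although by the methods both assays start from 1 extract. Libraries of 1 number in both assays had deviations with correlations from -0.104 to 0.205, and such low values cannot show that pairing is absent. Between the genotypes, within an assay, these correlations ran from -0.083 to 0.241, the highest being that of RNC-seq replicate 2. Whether a shared batch lies behind that value was not tested. With the replicate block the members called were 0, 0, 0, 34 and 19 in the 5 comparisons, as without it, and genes called in RNA-seq went from 52 to 4. Depth is unknown, so members under 1 FPKM are the least certain.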
